A study of Homo sapiens with 7 samples.

Results

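The 51 genes described here are transcribed in, or work in, the part of the cell cycle in which a cell copies its DNA and divides. They were chosen by name: 22 genes of S phase, 28 genes of mitosis, and MKI67, the Ki-67 antigen of cycling cells, which was kept apart. All 51 were found among the 33117 genes in the deposited tables, each under a single identifier, and all 51 averaged 1 TPM or more. TPM is transcript abundance per length of transcript, scaled so that each library sums to 1e+06. The libraries are bulk RNA sequencing of 769-P, an established line of human kidney cancer cells (clear cell renal cell carcinoma, per the series title), grown in RPMI medium with fetal bovine serum. There were 3 libraries labelled PA, whose meaning is not spelled out, and 4 labelled Lat-M, which the series title calls latent metastatic. No agent, genetic change or host is named for either group, and how the Lat-M cells were obtained is not given in the sources used here. The Lat-M libraries are numbered 1-1, 1-2, 2-1 and 2-2. The first number, of unstated meaning, was used to form the pairs Lat-M1 (n = 2) and Lat-M2 (n = 2). Nothing states that libraries of a group came from separate cultures, so p-values measure how far these libraries vary, a spread that may be only technical.

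S phase begins when origins of replication, licensed by CDC6 and CDT1 with the MCM2 to MCM7 helicase ring, are fired and joined by CDC45 and the GINS complex. Transcription of this machinery, of the enzymes that make deoxynucleotides and of several E2F factors themselves is driven by E2F factors once the retinoblastoma protein releases them. The mitotic genes are transcribed later, in G2, through the CHR element and CCAAT boxes, which are bound by MuvB complexes with B-MYB and FOXM1 and by NF-Y. The DREAM complex keeps both groups silent in resting cells. Levels of these transcripts are widely used as a measure of how many cells of a population are cycling. In bulk RNA, a change in the share of cells in a phase and a change in RNA per cell cannot be told apart, and no cell number, growth rate or phase distribution was available here.

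The promoters of the 2 groups carry different short sequences, and matches to E2F sites, the CHR and the CCAAT box are shown here. Only the exact letters listed below were searched, so a gene without a match is not shown to lack such a site. RefSeq promoters (GRCh38.p14, another build than the hg19 of the submitters' processing notes; 250 bases before to 50 after each start) were matched by symbol for 42 of the 51 members. E2F sites were searched as TTTCCCGC, TTTGGCGC, TTTCGCGC and TTTGCCGC as 1 class, the CHR as TTTGAA or TTCGAA, and the CCAAT box as CCAAT, each on both strands and with overlaps allowed. An E2F site was found in 13 of 19 S phase promoters (68.4%) and in 3 of 22 mitosis promoters (13.6%), against 3.33% of all 27303 promoters. A CHR was found in 14 of 22 mitosis promoters (63.6%) and 2 of 19 S phase promoters (10.5%), against 16.6% of all promoters. CCAAT was common in both, in 68.4% and 81.8%, against 35.7% of all promoters. A CHR and a CCAAT box stood together in 13 of 22 mitosis promoters (59.1%), against 6.58% of all promoters. Among 8950 promoters matched by symbol to genes with a mean of 1 TPM or more, 5.56% held an E2F site and 11.05% a CHR. There 37.5% held CCAAT, and 4.88% a CHR with a CCAAT box. The CHR share of the S phase promoters was thus near that of these genes. A match is a description of the letters and no evidence of binding in these cells. In the stretches below, capitals mark these matches, read on either strand (on the minus strand a CCAAT box appears as ATTGG).
MCM6: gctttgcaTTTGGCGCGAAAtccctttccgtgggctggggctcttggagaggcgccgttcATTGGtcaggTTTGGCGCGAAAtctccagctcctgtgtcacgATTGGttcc
PCNA: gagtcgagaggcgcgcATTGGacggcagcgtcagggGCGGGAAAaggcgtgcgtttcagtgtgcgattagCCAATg
E2F1: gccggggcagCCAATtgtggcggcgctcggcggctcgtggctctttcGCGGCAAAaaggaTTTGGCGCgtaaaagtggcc
CCNB2: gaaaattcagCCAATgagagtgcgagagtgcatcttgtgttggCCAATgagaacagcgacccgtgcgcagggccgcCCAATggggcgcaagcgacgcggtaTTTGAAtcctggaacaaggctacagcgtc
PLK1: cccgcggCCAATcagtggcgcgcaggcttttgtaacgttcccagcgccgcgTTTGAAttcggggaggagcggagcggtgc
KIF23: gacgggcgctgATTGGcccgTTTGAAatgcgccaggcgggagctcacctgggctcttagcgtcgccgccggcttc
CDC20: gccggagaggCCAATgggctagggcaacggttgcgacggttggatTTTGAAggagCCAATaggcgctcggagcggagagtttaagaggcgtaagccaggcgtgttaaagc

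The MCM6 stretch (chr2:135876493-135876603, minus strand) holds TTTGGCGC overlapping the reverse of TTTCGCGC, and the same overlapping pair again further on. The PCNA stretch (chr20:5126642-5126717, minus strand) holds 1 E2F site between CCAAT boxes, and E2F1 (chr20:33686386-33686465, minus strand) holds both TTTGCCGC, reversed, and TTTGGCGC, so this E2F gene carries the sites of its own family. The other stretches lie on the plus strand, at chr15:59105016-59105145 for CCNB2, chr16:23678809-23678888 for PLK1, chr15:69414274-69414348 for KIF23 and chr1:43358871-43358980 for CDC20, and each holds TTTGAA downstream of a CCAAT box. CCNB2, KIF23 and CDC20 share these letters and differed in direction in Lat-M1, as given below, while of the E2F-site genes shown MCM6 passed the test in Lat-M1, and PCNA and E2F1 did not.

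**Figure D1:**
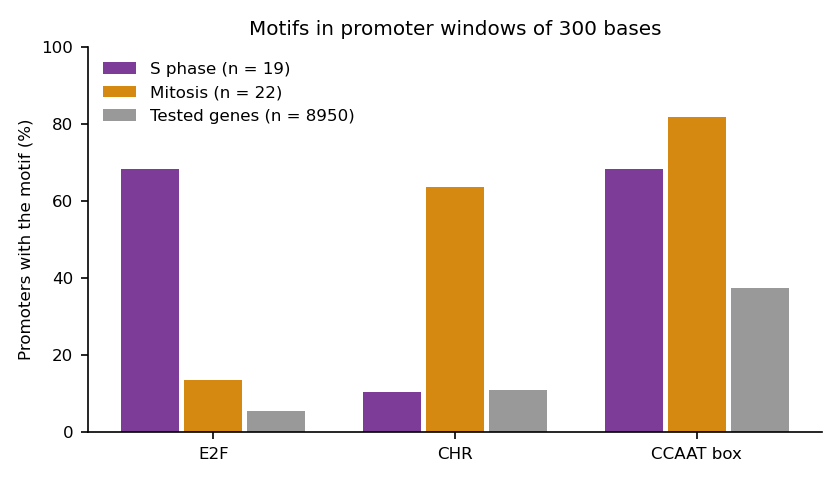
Share of promoters (percent, axis from 0) that hold an E2F site, a CHR or a CCAAT box. Bars are the S phase list (n = 19), the mitosis list (n = 22) and the tested genes (n = 8950). Tested genes are those with a mean of 1 TPM or more, matched by symbol. E2F sites were in 68.4% of S phase promoters and the CHR in 63.6% of mitosis promoters, against 5.56% and 11.05% of promoters of tested genes.

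The label of the line was checked against marker genes. Of 11 kidney and renal carcinoma markers looked at, 8 averaged 1 TPM or more, the highest at 2230 TPM. PAX8 (65.6 to 87.9 TPM), a kidney lineage factor, was present in every library, while CA9 (at most 0.156 TPM) and NDUFA4L2 (at most 0.105 TPM), genes that mark most clear cell carcinomas, were near 0 throughout. The 3 endothelial markers listed summed to at most 0.0255 TPM. The sum of 8 fibroblast and pericyte markers was 5.18 to 5.54 TPM for PA, 21.9 to 23.8 for Lat-M1 and 6.93 to 8.87 for Lat-M2. Most of that sum in Lat-M1 was COL1A1 (19.2 and 20.6 TPM), while COL1A2, COL3A1, DCN, LUM and PDGFRA did not pass 0.0364 TPM in any library. Of the 8 markers, 2 averaged 1 TPM or more, COL1A1 and either PDGFRB or RGS5. Of 4 leukocyte markers listed, PTPRC, the pan-leukocyte marker, did not pass 0.0121 TPM, and CD68 stood at 45.6, 48.2 and 46.2 TPM in PA, 14.1 and 15.5 in Lat-M1, and 41.8 and 39.7 in Lat-M2. The part of COL1A1 and CD68 in the results was not tested.

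A difference between whole libraries touches every value below. Of all TPM, 29.5 to 31.8% belonged to 4 structural RNAs (RN7SL1, RN7SL2, RN7SK and RMRP) in PA, against 18.6 to 21.9% in Lat-M1 and 22.9 to 27.7% in Lat-M2. TPM sums to a constant in each library, and the median of all tested genes stood 0.16 higher on the log2 scale in Lat-M1 than in PA and 0.14 higher in Lat-M2. After every library was divided by its median ratio to a geometric mean library, called scaling from here on, these medians were 0.0032 and -0.0010. Results are therefore given on TPM as deposited and again after scaling, and a member that passed as deposited but not after scaling is named as such. Statements that libraries lie above, below or across one another refer to TPM as deposited, unless scaling is named. With the 4 structural RNAs left out and each library rescaled, the all-gene medians against PA were -0.015 in Lat-M1 and 0.046 in Lat-M2. Results under that rescaling are given at the end. The part of the structural RNAs in the values was not tested beyond this.

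As groups, the 22 S phase genes stood slightly higher in Lat-M1 than in PA, and the mitosis genes of all groups overlapped once scaled. Over the 22 S phase genes the mean log2(TPM + 1) was 5.93 ± 0.028 for PA (SD between libraries, n = 3), 6.20 ± 0.041 for Lat-M1 (n = 2) and 6.07 ± 0.13 for Lat-M2 (n = 2) as deposited. After scaling it was 6.02 ± 0.028, 6.11 ± 0.019 and 6.01 ± 0.053. Lat-M1 alone lay apart from PA, without overlap, on both scales. Over the 28 mitosis genes the mean was 6.56 ± 0.027 in PA, against 6.74 ± 0.039 in Lat-M1 and 6.70 ± 0.11 in Lat-M2 as deposited. After scaling it was 6.65 ± 0.026, 6.65 ± 0.021 and 6.64 ± 0.029, so the 3 groups overlapped. The S phase mean minus the mitosis mean, in which the scaling nearly cancels, was -0.67, -0.58 and -0.63 in the PA libraries, -0.54 and -0.54 in Lat-M1, and -0.61 and -0.65 in Lat-M2. Lat-M1 was thus above all PA and Lat-M2 libraries on this measure, and Lat-M2 lay within PA.

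**Figure D2:**
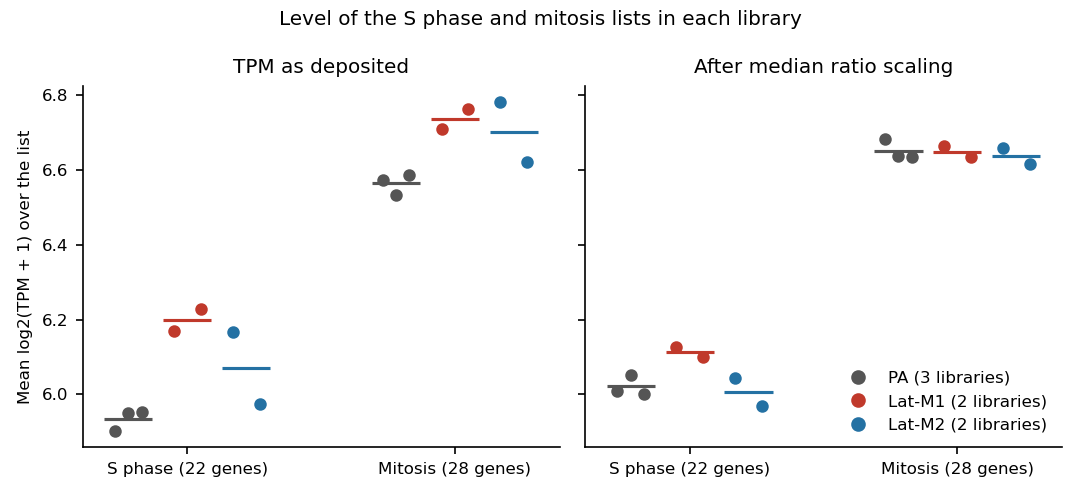
Mean log2(TPM + 1) of the S phase list and of the mitosis list in each of the 7 libraries, as deposited and after median ratio scaling, where each point is a library and each bar a group mean. The mitosis means of PA, Lat-M1 and Lat-M2 after scaling were 6.65, 6.65 and 6.64, and the Lat-M2 pair lies far apart as deposited.

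Levels among the members spanned from E2F2, an activator E2F with a mean of 4.27 TPM, to PCNA, the sliding clamp of the DNA polymerases, with 713 TPM. A set of 10 genes was followed in every library whatever their result. MKI67 stood at 90.02, 89.01 and 95.8 TPM in PA, against 106 and 117 in Lat-M1 and 110.1 and 98.8 in Lat-M2. All Lat-M libraries were above all PA libraries as deposited, and Lat-M2 overlapped PA after scaling. The Lat-M1 difference was 0.28 ± 0.073 (SE; adjusted p = 0.0173) as deposited and 0.10 ± 0.033 (adjusted p = 0.0424) after scaling (limma, Benjamini-Hochberg). The scaled call was lost on leaving out any 1 library, and the call as deposited without PA 2 or Lat-M1 2. In Lat-M2 the difference was 0.19 ± 0.073 (SE; adjusted p = 0.127) as deposited and 0.034 ± 0.033 (adjusted p = 0.548) after scaling. PCNA stood at 671, 712 and 719 TPM in PA, against 745 and 802 in Lat-M1 and 727 and 618 in Lat-M2, where the Lat-M2 pair spans the whole PA range. MCM2, a subunit of the replicative helicase, stood at 57.9, 65.5 and 65.3 TPM in PA, against 80.9 and 85.8 in Lat-M1 and 84.99 and 73.5 in Lat-M2, with all Lat-M libraries above PA. E2F1, the activator E2F whose promoter is printed above, stood at 23.7, 26.8 and 27.6 TPM in PA, against 30.6 and 30.1 in Lat-M1 and 27.6 and 24.6 in Lat-M2. It did not pass in any comparison on either scale. RRM2, the regulated subunit of ribonucleotide reductase, stood at 141, 131 and 141 TPM in PA, against 114 and 123 in Lat-M1 and 131 and 122 in Lat-M2. Both Lat-M1 libraries lay below PA, and Lat-M2 overlapped PA at its replicate 1.

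TOP2A, the topoisomerase that untangles chromosomes, stood at 365, 341 and 366 TPM in PA, against 291 and 297 in Lat-M1 and 429.6 and 361 in Lat-M2. Lat-M1 was below PA without overlap, and Lat-M2 overlapped PA. CCNB1, the main mitotic cyclin, stood at 304, 268 and 292 TPM in PA, against 329.9 and 348 in Lat-M1 and 313 and 280.3 in Lat-M2, and its partner kinase CDK1 at 147, 139 and 145 TPM in PA, against 147 and 154 in Lat-M1 and 146 and 133 in Lat-M2. For CCNB1 only Lat-M1 lay above PA, and for CDK1 the 3 groups overlapped. FOXM1, a transcription factor of the G2 genes, stood at 50.999, 51.5 and 50.6 TPM in PA, against 59.8 and 63.8 in Lat-M1 and 57.97 and 54.01 in Lat-M2. Every Lat-M library was above every PA library for FOXM1 as deposited, while after scaling Lat-M2 overlapped PA (-0.02, adjusted p = 0.741). Its Lat-M1 difference of 0.27 ± 0.058 (adjusted p = 0.00761, limma with Benjamini-Hochberg) became 0.10 ± 0.035 (adjusted p = 0.0649) after scaling, the former lost without Lat-M1 2. PLK1, the kinase that drives entry into and progress through mitosis, stood at 37.3, 41.7 and 39.4 TPM in PA, against 42.1 and 41.995 in Lat-M1 and 50.9 and 43.5 in Lat-M2. All Lat-M libraries were above PA for PLK1 as deposited, and Lat-M1 overlapped PA after scaling. By limma as deposited, PLK1 did not pass in Lat-M1 (adjusted p = 0.401) or Lat-M2 (adjusted p = 0.08).

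**Figure D3:**
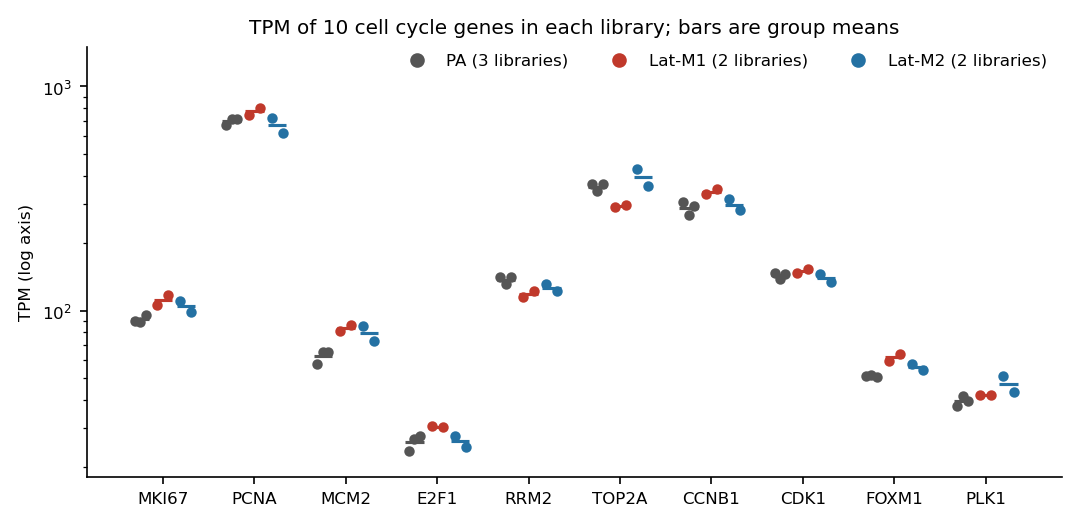
TPM as deposited of MKI67, PCNA, MCM2, E2F1, RRM2, TOP2A, CCNB1, CDK1, FOXM1 and PLK1 in each library on a log axis, with points for libraries and bars for group means. MKI67, MCM2, FOXM1 and PLK1 are higher in all 4 Lat-M libraries than in PA as deposited, while TOP2A and RRM2 are lower in Lat-M1.

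Lat-M1 against PA showed the most differences, in both directions. As deposited, 12 of the 22 S phase genes were higher and 2 lower, and after scaling 9 were higher and 5 lower. The background was high: 44.8% of all 16724 tested genes passed as deposited (33.2% higher, 11.6% lower), and 46.9% after scaling (23.9% higher, 23% lower). The S phase share, 14 of 22 on both scales, is to be read against that background. Groups did not overlap for 20 S phase genes as deposited and 18 after scaling, against 68% and 67.1% of all genes. The median S phase difference was 0.31 as deposited, against 0.16 over all genes, and 0.14 after scaling, against 0.0032. No S phase gene passed in opposite directions on the 2 scales. Passing higher on both were CDC45, E2F8, FEN1, GINS2, MCM2, MCM3, MCM5, MCM6 and TK1, and passing lower on both were E2F2 and RRM2. Of the 12 S phase calls higher as deposited, 6 kept the call on both scales with each library left out in turn, namely CDC45, E2F8, FEN1, MCM3, MCM5 and TK1. In such fits a lone library is taken to vary as the other groups do. The count of 14 as deposited became 9 without Lat-M1 1 and 6 without Lat-M1 2, where 33.7% and 28.1% of all genes passed.

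Within the helicase and its loaders, members moved apart. CDC45, which joins the MCM ring and GINS to form the active helicase, stood at 28.997, 29.4 and 27.99 TPM in PA, against 44.4 and 44.5 in Lat-M1 and 32.4 and 31.3 in Lat-M2. Both Lat-M1 libraries were far above the other 5, and the difference was 0.61 ± 0.053 (SE; adjusted p = 0.00012) as deposited and 0.43 ± 0.052 (adjusted p = 0.000834) after scaling by limma, a 1.52-fold and 1.35-fold higher level. MCM3 stood at 159, 154 and 154 TPM in PA, against 228 and 232 in Lat-M1 and 194 and 167 in Lat-M2, and MCM5 at 31.5, 36.5 and 35.6 TPM in PA, against 50.6 and 50.3 in Lat-M1 and 41.2 and 38.7 in Lat-M2. For both, Lat-M1 was above every PA and Lat-M2 library. The MCM3 difference was 0.56 ± 0.071 (SE; adjusted p = 0.000697) as deposited and 0.38 ± 0.048 (adjusted p = 0.00102) after scaling, and that of MCM5 was 0.54 ± 0.075 (SE; adjusted p = 0.0011) as deposited and 0.36 ± 0.065 (adjusted p = 0.00451) after scaling. MCM4 stood at 128, 125 and 129 TPM in PA, against 111 and 119.5 in Lat-M1 and 159.9 and 138 in Lat-M2, so that Lat-M1 was the lowest group and Lat-M2 the highest. The MCM4 difference in Lat-M1 was -0.14 ± 0.074 (SE; adjusted p = 0.158) as deposited and -0.32 ± 0.039 (adjusted p = 0.000845) after scaling. MCM7 stood at 173, 174 and 167 TPM in PA, against 167 and 177 in Lat-M1 and 203 and 185 in Lat-M2. Lat-M1 overlapped PA as deposited, and it passed lower only after scaling (-0.17 ± 0.043, adjusted p = 0.0168), a call lost without either Lat-M1 library. CDC6, the loader of the ring, likewise passed lower only after scaling, with a difference of -0.33 ± 0.044 (adjusted p = 0.00132), from 83.1, 79.97 and 81.1 TPM in PA, against 71.7 and 74.2 in Lat-M1 and 96.9 and 83.4 in Lat-M2. Subunits of a single hexamer thus differed in direction within the same libraries after scaling. The ratio of MCM3 to MCM4 in TPM, on which scaling has no bearing and which was chosen after the values were seen, was 1.24, 1.23 and 1.19 in PA, against 2.05 and 1.94 in Lat-M1, and 1.22 and 1.21 in Lat-M2. The ratio of MCM5 to MCM7 was 0.182, 0.210 and 0.213 in PA, against 0.304 and 0.285 in Lat-M1, and 0.203 and 0.209 in Lat-M2.

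The remaining helicase genes followed MCM3 less firmly. MCM2 was higher by 0.40 ± 0.086 (SE; adjusted p = 0.00771) as deposited and 0.23 ± 0.057 (adjusted p = 0.0182) after scaling. MCM6 stood at 75.2, 72.9 and 76.2 TPM in PA, against 93.1 and 97.7 in Lat-M1 and 93.8 and 76.4 in Lat-M2, and was higher by 0.35 ± 0.088 (SE; adjusted p = 0.0153) as deposited and 0.17 ± 0.054 (adjusted p = 0.0409) after scaling. GINS2, a subunit of the GINS complex, stood at 38.9, 38.7 and 38.2 TPM in PA, against 46.1 and 51.3 in Lat-M1 and 48.3 and 42.3 in Lat-M2, and was higher by 0.33 ± 0.075 (SE; adjusted p = 0.0106) as deposited and 0.15 ± 0.043 (adjusted p = 0.0286) after scaling. As deposited, MCM2 and GINS2 lost the call without Lat-M1 2, and MCM6 without either Lat-M1 library. After scaling, MCM2 lost it without either Lat-M1 library, GINS2 without either or without PA 3, and MCM6 without any 1 PA or Lat-M1 library. CDT1, the other loader, stood at 10.6, 14.5 and 14.9 TPM in PA, against 18.5 and 20.3 in Lat-M1 and 19.2 and 15.3 in Lat-M2, and passed as deposited (0.52 ± 0.16, adjusted p = 0.0376) but not after scaling (adjusted p = 0.0862). As deposited it was lost without either Lat-M1 library. PA 1 was low for CDT1, and it was also the lowest PA library for MCM5, MCM2, TK1, E2F1 and UHRF1.

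**Figure D4:**
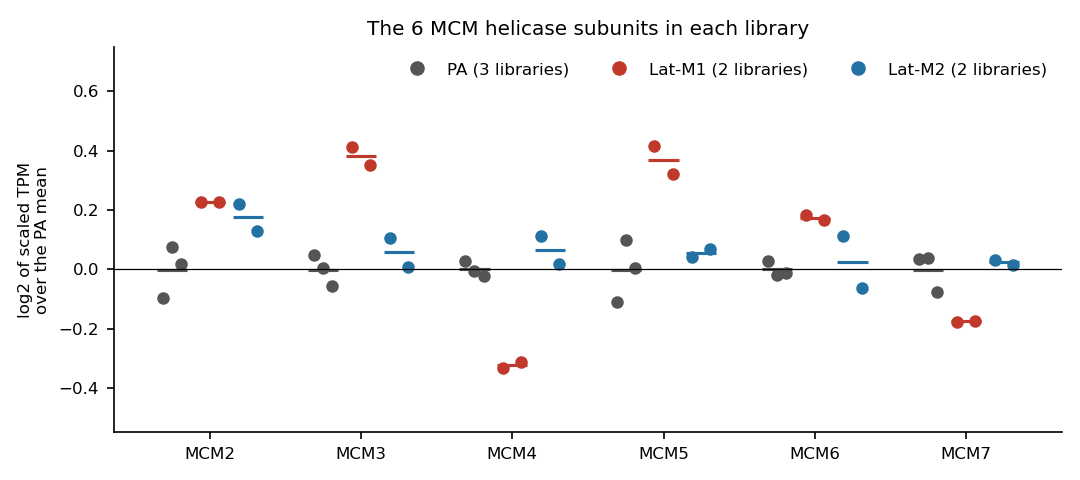
Log2 of scaled TPM over the PA mean for the helicase subunits MCM2 to MCM7 in each library, with points for libraries and bars for group means. Both Lat-M1 libraries lie above 0 for MCM3 and MCM5, and below 0 for MCM4.

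The enzymes of deoxynucleotide supply and DNA synthesis also split. TK1, thymidine kinase of the salvage pathway, stood at 121, 142 and 132 TPM in PA, against 207 and 219 in Lat-M1 and 161 and 147 in Lat-M2. Its Lat-M1 difference was 0.69 ± 0.08 (SE; adjusted p = 0.000471) as deposited and 0.51 ± 0.065 (adjusted p = 0.00106) after scaling, the largest rise of the S phase list (1.61-fold as deposited). FEN1, the nuclease that trims Okazaki fragments, stood at 67.3, 68.7 and 65.4 TPM in PA, against 101 and 107 in Lat-M1 and 80.02 and 67.7 in Lat-M2, and was higher in Lat-M1 by 0.62 ± 0.078 (SE; adjusted p = 0.000674) as deposited and 0.45 ± 0.053 (adjusted p = 0.0008) after scaling. For both genes the Lat-M1 pair was above every other library. RRM2, by contrast, was lower in Lat-M1 with a difference of -0.21 ± 0.065 (SE; adjusted p = 0.0332) as deposited and -0.39 ± 0.038 (adjusted p = 0.000367) after scaling. The RRM2 call as deposited was lost without either Lat-M1 library, without PA 1 or without PA 3, and the scaled call was kept in every such fit. Its partner subunit RRM1 (0.26, adjusted p = 0.0259) and TYMS, thymidylate synthase (0.30, adjusted p = 0.0198), passed higher only as deposited. After scaling their adjusted p were 0.192 and 0.0581. PCNA (0.14) and the primase and polymerase alpha genes PRIM1 (0.07) and POLA1 (0.19) did not pass on either scale, with adjusted p of at least 0.0912.

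Of the transcription factors, E2F8, an atypical repressor E2F, stood at 16.4, 15.3 and 16.2 TPM in PA, against 23.6 and 22.5 in Lat-M1 and 13.9 and 12.9 in Lat-M2. It was highest in Lat-M1 and lowest in Lat-M2, with no overlap between any groups. Its Lat-M1 difference was 0.50 ± 0.065 (SE; adjusted p = 0.000821) as deposited and 0.33 ± 0.058 (adjusted p = 0.00408) after scaling. E2F2 stood at 4.76, 4.93 and 4.28 TPM in PA, against 3.57 and 3.43 in Lat-M1 and 4.44 and 4.47 in Lat-M2. It was lowest in Lat-M1, with a difference of -0.33 ± 0.095 (SE; adjusted p = 0.0259) as deposited and -0.47 ± 0.10 (adjusted p = 0.00835) after scaling. The E2F2 call as deposited was lost without PA 1, PA 2 or either Lat-M1 library, and the scaled call without Lat-M1 2. E2F1 (0.22, adjusted p = 0.0713) and UHRF1, which passes DNA methylation to new strands (0.36, adjusted p = 0.109), did not pass.

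The mitosis list of Lat-M1 was likewise split. As deposited, 14 of the 28 genes were higher and 3 lower than in PA, but after scaling 5 were higher and 9 lower, against the same backgrounds of 44.8% and 46.9% for either direction. The direction of the balance therefore turned with the scaling. Groups did not overlap for 24 and 22 of the 28, against the same 68% and 67.1%. The median mitosis difference was 0.20 as deposited, against 0.16 over all genes, and 0.026 after scaling. Passing higher on both scales were BUB1B, CCNB2, KIF23, NUSAP1 and PTTG1, and all 5 kept the call on both scales with each library left out in turn. Passing lower on both were AURKA, CDC20 and TOP2A. Those 3 kept the scaled call in every such fit, but as deposited AURKA lost it without Lat-M1 1, TOP2A without PA 1, PA 3 or either Lat-M1 library, and CDC20 without any 1 PA or Lat-M1 library. The count of 17 as deposited became 10 without PA 2, 10 without PA 3, and 7 without either Lat-M1 library. Of all genes, 39.4% and 39.2% passed without PA 2 and PA 3.

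The higher group held securin, a central-spindle kinesin, a checkpoint protein, a mitotic cyclin and a spindle bundler. PTTG1, or securin, which holds separase until anaphase, stood at 109.9, 101 and 106 TPM in PA, against 168 and 177 in Lat-M1 and 133 and 125 in Lat-M2. Its Lat-M1 difference was 0.70 ± 0.061 (SE; adjusted p = 0.000114) as deposited and 0.52 ± 0.044 (adjusted p = 0.000183) after scaling, 1.63-fold as deposited and the largest rise of all 51 members. How reads were split between PTTG1 and its near-identical retrocopies is not given in the sources used here. KIF23, a kinesin of the central spindle whose CHR promoter is printed above, stood at 50.7, 47.9 and 49.2 TPM in PA, against 78.1 and 80.2 in Lat-M1 and 63.1 and 55.7 in Lat-M2, and was higher by 0.67 ± 0.067 (SE; adjusted p = 0.000233) as deposited and 0.50 ± 0.044 (adjusted p = 0.000216) after scaling. BUB1B, the checkpoint protein BUBR1, stood at 57.7, 54.7 and 57.8 TPM in PA, against 84.5 and 86.1 in Lat-M1 and 67.4 and 59.5 in Lat-M2, and was higher by 0.58 ± 0.067 (SE; adjusted p = 0.000467) as deposited and 0.40 ± 0.04 (adjusted p = 0.000368) after scaling. In all 3 the Lat-M1 pair stood above the Lat-M2 pair, and the Lat-M2 pair above PA, except that Lat-M2 overlapped PA for BUB1B after scaling. CCNB2, a mitotic cyclin, stood at 88.1, 82.8 and 86.5 TPM in PA, against 124 and 131 in Lat-M1 and 107 and 96.3 in Lat-M2, and was higher by 0.56 ± 0.066 (SE; adjusted p = 0.000484) as deposited and 0.39 ± 0.039 (adjusted p = 0.000372) after scaling. NUSAP1, which bundles spindle microtubules, stood at 148, 150.1 and 149.8 TPM in PA, against 203 and 210.0 in Lat-M1 and 174 and 150.3 in Lat-M2, and was higher by 0.46 ± 0.07 (SE; adjusted p = 0.00159) as deposited and 0.29 ± 0.04 (adjusted p = 0.00167) after scaling. CENPA, the centromeric histone, stood at 40.7, 42.3 and 40.3 TPM in PA, against 51.7 and 52.4 in Lat-M1 and 40.2 and 39.999 in Lat-M2. Its Lat-M1 difference of 0.33 ± 0.051 as deposited (adjusted p = 0.0017) was 0.16 ± 0.053 after scaling (adjusted p = 0.051, just outside the threshold).

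The lower group held the anaphase activator CDC20, the spindle kinase AURKA and TOP2A. CDC20 stood at 214, 212 and 214 TPM in PA, against 186 and 188 in Lat-M1 and 243 and 224 in Lat-M2, with Lat-M1 the lowest and, as deposited, Lat-M2 the highest. Its Lat-M1 difference was -0.19 ± 0.054 (SE; adjusted p = 0.0237) as deposited and -0.37 ± 0.036 (adjusted p = 0.000352) after scaling. AURKA stood at 119, 112 and 117 TPM in PA, against 88.2 and 97.8 in Lat-M1 and 128 and 112 in Lat-M2, with Lat-M1 below all other libraries, and differed by -0.32 ± 0.078 (SE; adjusted p = 0.0142) as deposited and -0.49 ± 0.046 (adjusted p = 0.000276) after scaling. TOP2A differed by -0.28 ± 0.081 (SE; adjusted p = 0.0263) as deposited and -0.46 ± 0.053 (adjusted p = 0.000712) after scaling. CDC25B, a phosphatase that starts CDK1 activation, stood at 36.8, 38.7 and 39.6 TPM in PA, against 32.6 and 34.6 in Lat-M1 and 49.6 and 42.5 in Lat-M2, and CENPF, a kinetochore protein, at 269, 274 and 295 TPM in PA, against 257 and 251 in Lat-M1 and 359.7 and 299.5 in Lat-M2. Both were lowest in Lat-M1 and passed lower only after scaling, with a difference of -0.36 ± 0.041 (adjusted p = 0.000691) and -0.31 ± 0.059 (adjusted p = 0.00545). The ratio of PTTG1 to CDC20, both regulators of anaphase, chosen after the values were seen, was 0.513, 0.477 and 0.497 in PA, against 0.905 and 0.944 in Lat-M1, and 0.545 and 0.558 in Lat-M2.

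Of the other mitosis genes, 9 passed higher in Lat-M1 as deposited and not after scaling: BIRC5, CCNA2, CCNB1, CDC25C, CENPA, CENPE, FOXM1, KIF11 and KIF20A, with differences of 0.21 to 0.35. Passing lower after scaling and not before were AURKB, CDC25B, CDK1, CENPF, CKS2 and TPX2, from -0.36 to -0.11. The remaining 5, BUB1, CCNF, PLK1, TTK and UBE2C, passed on neither scale. CDK1 and TPX2, the spindle assembly factor that activates AURKA, changed sign between scales, with 0.064 and 0.047 as deposited and -0.11 and -0.13 after scaling.

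**Figure D5:**
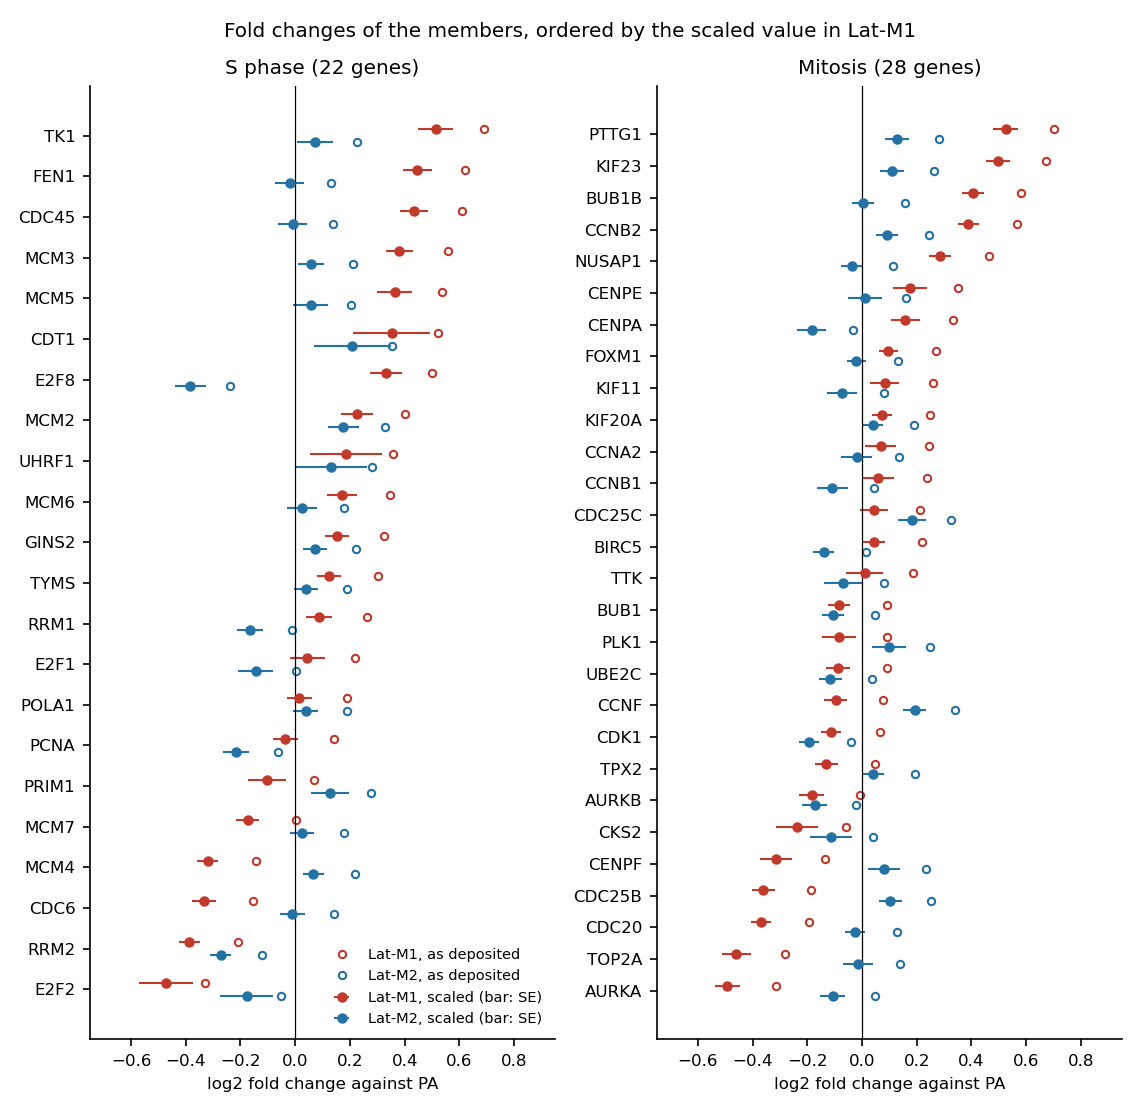
Log2 fold change against PA of the 22 S phase and 28 mitosis genes in Lat-M1 and in Lat-M2, from limma. Filled points with SE bars are values after scaling, and open points are values as deposited, whether or not a gene passed the test. Lat-M1 spreads to both sides, from PTTG1 at 0.70 to E2F2 at -0.33 as deposited, and Lat-M2 from CDT1 at 0.35 to E2F8 at -0.24.

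Lat-M2 against PA showed few differences. As deposited, 1 S phase gene was higher (MCM2) and 5 mitosis genes were higher (CCNB2, CCNF, CDC25C, KIF23 and PTTG1), with none lower, where 14.9% of all tested genes passed (12.7% higher, 2.24% lower). After scaling, 3 S phase genes were lower (E2F8, PCNA and RRM2), none was higher, and in the mitosis list CCNF was higher and CDK1 lower, where 15.9% of all genes passed (7.44% higher, 8.42% lower). The shares of members past the threshold are thus near or below the background on both scales. Groups did not overlap for 15 S phase and 15 mitosis genes as deposited, against 49.8% of all genes, and for 7 and 14 after scaling, against 47%. The medians were 0.18 for S phase and 0.13 for mitosis as deposited, against 0.14 over all genes, and 0.032 and -0.020 after scaling. No member kept its call on leaving out each library in turn, on either scale. As deposited the counts depended on the Lat-M2 pair itself: without Lat-M2 2, 10 S phase and 16 mitosis genes passed, all higher, against 18.9% of all genes, and without Lat-M2 1, 0 and 0, against 2.95%. Lat-M2 1 was above Lat-M2 2 in 49 of the 51 members as deposited, by a median log2 difference of 0.18, and in 39 after scaling, by a median of 0.060.

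CCNF, cyclin F, a ubiquitin ligase subunit of G2 that targets RRM2 protein, was the only member that passed on both scales in Lat-M2. It stood at 25.98, 28.3 and 28.4 TPM in PA, against 28.5 and 29.7 in Lat-M1 and 36.5 and 33.8 in Lat-M2. Both Lat-M2 libraries were above the other 5, and the difference from PA was 0.34 ± 0.066 (SE; adjusted p = 0.0195) as deposited and 0.19 ± 0.042 (adjusted p = 0.0317) after scaling. It was lost as deposited without Lat-M2 1 or PA 1, and after scaling in each fit except that without PA 2. PTTG1 (0.28 ± 0.061, adjusted p = 0.0266), KIF23 (0.26 ± 0.067, adjusted p = 0.0432) and CCNB2 (0.24 ± 0.066, adjusted p = 0.0497) were also higher as deposited by limma, and their scaled differences of 0.13, 0.11 and 0.091 did not pass. CDC25C, the phosphatase that activates CDK1, stood at 14.2, 13.04 and 13.6 TPM in PA, against 15.7 and 16.1 in Lat-M1 and 18.3 and 16.4 in Lat-M2. It differed in Lat-M2 by 0.33 ± 0.071 (SE; adjusted p = 0.0275) as deposited and 0.18 ± 0.051 (adjusted p = 0.0618) after scaling. MCM2 differed by 0.33 ± 0.086 (SE; adjusted p = 0.0459) as deposited and 0.18 ± 0.057 (adjusted p = 0.0897) after scaling. E2F8 was lower after scaling with a difference of -0.38 ± 0.058 (adjusted p = 0.00944), and RRM2 with a difference of -0.27 ± 0.038 (adjusted p = 0.00792). PCNA was lower after scaling with a difference of -0.22 ± 0.047 (adjusted p = 0.0289), a call lost in 5 of 7 fits that left out a library. As deposited the differences were -0.24 (adjusted p = 0.0511), -0.12 (adjusted p = 0.24) and -0.064 (adjusted p = 0.619).

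Lat-M2 was also compared with Lat-M1 directly, without PA in the difference. In the S phase list 2 genes were higher in Lat-M2 and 7 lower as deposited, and 4 higher and 8 lower after scaling. In the mitosis list these counts were 6 and 6, and 7 and 8. Of all genes, 36% passed as deposited (16% higher, 20.1% lower) and 44.2% after scaling (21.6% higher, 22.6% lower). Groups did not overlap for 14 S phase and 23 mitosis genes as deposited, against 68.3% of all genes, and for 19 and 23 after scaling, against 74.6%. The all-gene median was -0.011 as deposited and 0.011 after scaling. Lower in Lat-M2 with each library left out, on both scales, were CDC45, E2F8, FEN1 and TK1 of the S phase list and BUB1B, CENPA, KIF23 and PTTG1 of the mitosis list. Higher in the same way were CDC20 and CDC25B. The S phase count as deposited fell from 9 to 4 without Lat-M1 1 and to 5 without Lat-M1 2, where 23.6% and 22.9% of all genes passed.

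E2F8 had the largest difference of the members, -0.74 ± 0.072 (SE; adjusted p = 0.000281) as deposited and -0.71 ± 0.063 (adjusted p = 0.00027) after scaling by limma, a 1.67-fold lower level in Lat-M2. CDC45 was lower with a difference of -0.47 ± 0.058 (SE; adjusted p = 0.000874) as deposited and -0.44 ± 0.057 (adjusted p = 0.00126) after scaling, and FEN1 with a difference of -0.49 ± 0.085 (SE; adjusted p = 0.00408) as deposited and -0.47 ± 0.058 (adjusted p = 0.0011) after scaling. TK1 was lower with a difference of -0.46 ± 0.088 (SE; adjusted p = 0.00581) as deposited and -0.44 ± 0.071 (adjusted p = 0.00334) after scaling. All 4 stood highest in Lat-M1 of the 3 groups. In the mitosis list PTTG1 was lower with a difference of -0.42 ± 0.066 (SE; adjusted p = 0.00265) as deposited and -0.40 ± 0.048 (adjusted p = 0.00101) after scaling, and BUB1B with a difference of -0.42 ± 0.074 (SE; adjusted p = 0.00404) as deposited and -0.40 ± 0.044 (adjusted p = 0.000671) after scaling. CDC25B was higher by 0.44 ± 0.085 (SE; adjusted p = 0.00653) as deposited and 0.46 ± 0.045 (adjusted p = 0.00041) after scaling, and CDC20 by 0.32 ± 0.059 (SE; adjusted p = 0.00529) as deposited and 0.35 ± 0.04 (adjusted p = 0.000809) after scaling. Both were lowest in Lat-M1. Lat-M2 stood above PA for both as deposited, while after scaling CDC20 differed by -0.024 in Lat-M2 against PA (adjusted p = 0.7). MCM4 (0.36 ± 0.081, adjusted p = 0.0121), TOP2A (0.42 ± 0.089, adjusted p = 0.00949) and AURKA (0.36 ± 0.086, adjusted p = 0.0149) were higher in Lat-M2 as deposited, calls that each were lost without Lat-M1 1 and that held in every such fit after scaling. CENPF (0.37 ± 0.093, adjusted p = 0.0196) and CDC6 (0.30 ± 0.078, adjusted p = 0.0229) were higher too, and lost the call as deposited without either Lat-M1 library. CENPA was lower with a difference of -0.37 ± 0.056 (SE; adjusted p = 0.00227) as deposited and -0.34 ± 0.058 (adjusted p = 0.00407) after scaling. The Lat-M2 pair lay just below every PA library as deposited, where Lat-M2 against PA did not pass (-0.035, adjusted p = 0.67 by limma).

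With the 4 Lat-M libraries as 1 group against PA, the comparison of the series design, no member passed on either scale in either list. At an unadjusted p under 0.05 by limma, 13 of 22 S phase and 10 of 28 mitosis genes lay there as deposited, against 25.5% of all genes. At the adjusted threshold, 2.9% of all genes passed as deposited (2.51% higher, 0.389% lower) and 1.25% after scaling (0.677% higher, 0.569% lower). Groups did not overlap for 10 S phase and 11 mitosis genes as deposited, against 28.5% of all genes, and for 3 and 8 after scaling, against 23.2%. The medians were 0.22 and 0.14 as deposited, against 0.15 over all genes, and 0.054 and -0.019 after scaling. In this fit the difference between the 2 Lat-M pairs counts as spread within Lat-M. With the same contrast in the fit of 3 groups, 11 S phase genes (10 higher) and 12 mitosis genes passed as deposited, against 36.5% of all genes. Without Lat-M2 2 the 2-group fit gave 8 in each list, against 11.1% of all genes. PTTG1 had the largest difference, 1.41-fold, with an adjusted p of 0.0913.

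The size of the differences was bounded. The 95% intervals of limma, not adjusted for the number of genes, reached 2-fold for no member, in any of the 4 comparisons, on either scale. In Lat-M1 as deposited, 5 members had a fold of at least 1.5, 3 of S phase and 2 of mitosis, and after scaling none did. The widest bounds in Lat-M1 were a 1.88-fold rise for CDT1 and a 1.47-fold fall for E2F2 as deposited, and 1.62-fold and 1.63-fold for the same genes after scaling. In Lat-M2 against PA they were a 1.67-fold rise for CDT1 and a 1.31-fold fall for E2F8 as deposited, and 1.47-fold and 1.44-fold for the same genes after scaling. Between the Lat-M pairs, the bound for E2F8 reached a 1.88-fold lower level in Lat-M2 as deposited. Against a 1.5-fold change (limma's treat), 0 members of either list passed in any comparison of the 3 groups, where 7.15% of all genes did in Lat-M1, 0.747% in Lat-M2 and 5.76% between the Lat-M pairs.

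Further genes of the same processes were read from lists of 45 other S phase genes and 57 other mitosis genes. The all-gene shares in Lat-M1, as above, were 33.2% higher and 11.6% lower as deposited, and 23.9% and 23% after scaling. In Lat-M1, 19 of the 45 were higher and 2 lower as deposited, and 14 and 14 after scaling, with medians of 0.18 and 0.0052. Of the 57 mitosis genes, 23 were higher and 5 lower as deposited, and 13 and 21 after scaling. In Lat-M2, where 12.7% of all genes were higher as deposited, and 7.44% higher and 8.42% lower after scaling, 9 and 7 of these genes were higher as deposited and none lower, and after scaling 4 were higher and 5 lower in the first list and 2 and 7 in the second. They too moved both ways. SLBP, the histone mRNA stem-loop binding protein, stood at 129.7, 125 and 129.6 TPM in PA, against 70.4 and 77.4 in Lat-M1 and 135 and 115 in Lat-M2, and was lower in Lat-M1 with a difference of -0.79 ± 0.081 (SE; adjusted p = 0.000264) as deposited and -0.96 ± 0.045 (adjusted p = 1.55e-05) after scaling. BLM, the Bloom helicase, stood at 18.2, 16.5 and 18.6 TPM in PA, against 31.3 and 31.1 in Lat-M1 and 24.2 and 21.05 in Lat-M2, and was higher by 0.78 ± 0.081 (SE; adjusted p = 0.00028) as deposited and 0.61 ± 0.058 (adjusted p = 0.000306) after scaling. DUT, the dUTPase, was higher by 0.68 ± 0.058 (SE; adjusted p = 0.000103) as deposited and 0.51 ± 0.052 (adjusted p = 0.000405) after scaling, and WDR76 by 0.68 ± 0.08 (SE; adjusted p = 0.0005) as deposited and 0.51 ± 0.05 (adjusted p = 0.000364) after scaling. As deposited only Lat-M1 stood apart from PA for SLBP, and after scaling SLBP was lower in Lat-M2 too, with a difference of -0.20 ± 0.045 (adjusted p = 0.0354), a call kept in 1 of 7 fits that left out a library. BLM was above PA in all 4 Lat-M libraries on both scales.

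Of the other mitosis genes, TACC3, a spindle protein that AURKA phosphorylates, stood at 38.2, 40.6 and 41.98 TPM in PA, against 23.2 and 24.6 in Lat-M1 and 48.3 and 41.5 in Lat-M2, and was lower in Lat-M1 with a difference of -0.73 ± 0.081 (SE; adjusted p = 0.00037) as deposited and -0.90 ± 0.044 (adjusted p = 1.96e-05) after scaling. PRC1, which bundles the central spindle on which KIF23 works, stood at 83.4, 82.8 and 82.98 TPM in PA, against 137 and 135 in Lat-M1 and 98.1 and 86.1 in Lat-M2, and was higher by 0.71 ± 0.065 (SE; adjusted p = 0.000151) as deposited and 0.53 ± 0.045 (adjusted p = 0.000193) after scaling. The direction of TACC3 was that of AURKA and the direction of PRC1 that of KIF23. These pairs were set side by side after the values were seen, and a link between them was not tested. NUF2, of the outer kinetochore, was lower with a difference of -0.50 ± 0.066 (SE; adjusted p = 0.000871) as deposited and -0.68 ± 0.049 (adjusted p = 9.4e-05) after scaling. PKMYT1, a kinase that restrains CDK1, was higher by 0.58 ± 0.12 (SE; adjusted p = 0.00579) as deposited and 0.42 ± 0.11 (adjusted p = 0.0185) after scaling. The TACC3, PRC1 and NUF2 calls were kept on both scales with each library left out, and that of PKMYT1 was lost after scaling without either Lat-M1 library.

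Upstream of S phase, 4 genes that control G1 (CDKN2B, CCND1, CDKN1A and CDKN1C) had larger differences in Lat-M1 than any member, as deposited. CDKN1A, the inhibitor p21, stood at 188, 184 and 189.5 TPM in PA, against 321 and 343 in Lat-M1 and 116 and 106 in Lat-M2, higher in Lat-M1 by 0.82 ± 0.062 (SE; adjusted p = 6.07e-05) as deposited and 0.64 ± 0.03 (adjusted p = 1.61e-05) after scaling and lower in Lat-M2 with a difference of -0.75 ± 0.062 (SE; adjusted p = 0.00073) as deposited and -0.91 ± 0.03 (adjusted p = 3.73e-05) after scaling. The 3 groups were wide apart. CCND1, cyclin D1, stood at 217, 219.9 and 226 TPM in PA, against 383 and 409 in Lat-M1 and 224 and 185 in Lat-M2, and was higher in Lat-M1 by 0.84 ± 0.084 (SE; adjusted p = 0.000235) as deposited and 0.66 ± 0.048 (adjusted p = 9.62e-05) after scaling. In Lat-M2 its difference was -0.12 ± 0.084 (SE; adjusted p = 0.367) as deposited and -0.27 ± 0.048 (adjusted p = 0.0159) after scaling, the latter lost without PA 3. CDKN2B, the inhibitor p15, stood at 19.5, 20.9 and 20.3 TPM in PA, against 46.5 and 47.4 in Lat-M1 and 31.5 and 25.9 in Lat-M2, and was higher in Lat-M1 by 1.17 ± 0.086 (SE; adjusted p = 5.1e-05) as deposited and 1.00 ± 0.06 (adjusted p = 4.23e-05) after scaling and in Lat-M2 by 0.48 ± 0.086 (SE; adjusted p = 0.0163) as deposited and 0.33 ± 0.06 (adjusted p = 0.0173) after scaling. Both the inhibitors p21 and p15 and the cyclin were thus highest in Lat-M1. CDKN1B, the inhibitor p27, stood at 48.5, 51.3 and 50.03 TPM in PA, against 41.03 and 41.5 in Lat-M1 and 60.9 and 52.1 in Lat-M2, and was lower in Lat-M1 with a difference of -0.27 ± 0.074 (SE; adjusted p = 0.0222) as deposited and -0.44 ± 0.049 (adjusted p = 0.000568) after scaling. CDKN1C, or p57, at low levels, stood at 1.39, 1.35 and 1.07 TPM in PA, against 0.364 and 0.341 in Lat-M1 and 2.47 and 2.87 in Lat-M2. It was lower in Lat-M1 with a difference of -0.74 ± 0.16 (SE; adjusted p = 0.0087) as deposited and -0.82 ± 0.16 (adjusted p = 0.00617) after scaling on log2(TPM + 1), a scale that understates a change at such levels. In Lat-M2 CDKN1C passed higher as deposited, a call lost on leaving out any 1 library. As deposited the CDKN1C call in Lat-M1 was lost without Lat-M1 2, and that of CDKN1B without PA 2, PA 3 or either Lat-M1 library. The CDKN2B call in Lat-M2 was lost without Lat-M2 1 on both scales. CCNE1, cyclin E1, did not pass as deposited in Lat-M1 (adjusted p = 0.409) and was lower after scaling with a difference of -0.24 ± 0.041 (adjusted p = 0.00396). In Lat-M2 CCNE1 passed after scaling, a call lost on leaving out any 1 library. Over the 15 tested genes of this list, 8 were higher and 2 lower in Lat-M1 as deposited, where 33.2% and 11.6% of all genes were, and 4 and 4 after scaling, where 23.9% and 23% were.

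Among 15 RB, DREAM and E2F genes, 6 were higher and none lower in Lat-M1 as deposited, and 3 were higher and 4 lower after scaling, counts near the same all-gene shares of 33.2% higher as deposited and 23.9% and 23% after scaling. E2F3, the third activator E2F, stood at 27.6, 27.7 and 28.6 TPM in PA, against 61.9 and 67.5 in Lat-M1 and 33.9 and 31.01 in Lat-M2. The Lat-M1 pair was above every other library by a wide gap, and the difference was 1.18 ± 0.066 (SE; adjusted p = 1.44e-05) as deposited and 1.01 ± 0.03 (adjusted p = 2.54e-06) after scaling. The activators therefore differed in Lat-M1, with E2F3 higher, E2F2 lower and E2F1 not past the threshold. TFDP2, a dimer partner of the E2F factors, was higher in Lat-M1 by 0.48 ± 0.072 (SE; adjusted p = 0.00155) as deposited and 0.32 ± 0.042 (adjusted p = 0.00128) after scaling and in Lat-M2 by 0.42 ± 0.072 (SE; adjusted p = 0.0139) as deposited and 0.29 ± 0.042 (adjusted p = 0.00922) after scaling. The Lat-M2 call was lost without Lat-M2 1 on both scales and without Lat-M2 2 after scaling. LIN54, the DREAM subunit that reads the CHR, was higher in Lat-M1 by 0.46 ± 0.082 (SE; adjusted p = 0.00335) as deposited and 0.29 ± 0.067 (adjusted p = 0.0128) after scaling, the latter lost without either Lat-M1 library. RBL2, the p130 pocket protein of DREAM, passed higher as deposited in Lat-M1 (adjusted p = 0.0451) and Lat-M2 (adjusted p = 0.0311) and in neither after scaling. Lat-M1 against PA and Lat-M2 against PA share the PA libraries.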

How the data were processed

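In all, 7 libraries were used, grouped by the labels as PA (3), Lat-M1 (2) and Lat-M2 (2). Total RNA was made into libraries with a TruSeq or a NEBNext Ultra kit, per the labels' protocols, with the kit of each library not given in the sources used here. TopHat2 2.2.4 and hg19 are named per the submitters' processing notes. The quantifier, annotation and use of strand are not given in the sources used here. The authors' deposited values are TPM, a unit read from the values, which sum to 1e+06 in each library. TPM keeps no counts, so the depth is unknown and no counting interval is given.

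Values were taken as log2(TPM + 1) and tested with limma 3.58.1 (R 4.3.3; trend and robust options) over 16724 genes (mean TPM of 1 or more), all 51 members among them. P-values were adjusted by the Benjamini-Hochberg method over all tested genes, at 0.05. PA, Lat-M1 and Lat-M2 were compared in a fit of 3 groups with a shared spread, and Lat-M with PA in a fit of 2 groups. Each result was computed again after median ratio scaling. Errors are SE for log2 differences and SD for levels.

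Other settings were a pseudocount of 0.1, no filter, a minimum mean of 5 TPM, leaving out RN7SL1, RN7SL2, RN7SK and RMRP with rescaling, a test against 1.5-fold, each library left out, the last number as a block, and correlated repeats. Median ratio scaling joined with a left-out library or with the block was added after seeing the data. The limma code was tested on simulated data. All 51 members may be named. Values in every library were given for 10 members whatever their result, and for up to 6 non-overlapping members of each list with the smallest adjusted p in each comparison of 3 groups. From each further list up to 4 members with the largest difference in Lat-M1 or Lat-M2 were named, and CCND1, CCNE1, CDKN1A and CDKN1B whatever their result. Members named beyond this were chosen after their values were seen. The members and lists were chosen with earlier results of these data known. Promoter sequences are from RefSeq (GRCh38.p14).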

Additional observations from a re-analysis of the deposited data

Results flagged for a closer look

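Effects in the Lat-M1 and Lat-M2 pairs, each set against the same PA libraries, differed from each other for 35 of the 69 genes looked at (the 51 members and 18 further genes), by the limma test of Lat-M2 against Lat-M1 (Benjamini-Hochberg over all genes, on TPM as deposited). Of all tested genes, 36% passed in that comparison, and the further genes were picked for a large difference in 1 pair or fixed by name. Values are log2 differences, Lat-M2 minus Lat-M1. In the S phase list they were -0.74 for E2F8, -0.49 for FEN1, -0.47 for CDC45, -0.46 for TK1, -0.35 for MCM3, -0.33 for MCM5 and -0.28 for RRM1, and 0.36 for MCM4 and 0.30 for CDC6. In the mitosis list they were -0.42 for BUB1B, -0.42 for PTTG1, -0.41 for KIF23, -0.37 for CENPA, -0.35 for NUSAP1 and -0.32 for CCNB2. Above 0 in that list were CDC25B (0.44), TOP2A (0.42), CENPF (0.37), AURKA (0.36), CDC20 (0.32) and CCNF (0.26).

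In the further lists, SLBP differed by 0.74, WDR76 by -0.66, BLM by -0.45 and DUT by -0.41. TACC3 differed by 0.88, NUF2 by 0.48 and PRC1 by -0.56. Among the genes of G1 and of the E2F and DREAM group, CDKN1A differed by -1.57, CCND1 by -0.96, CDKN2B by -0.70, CDKN1B by 0.44, CDKN1C by 1.44, E2F3 by -0.97 and LIN54 by -0.36.

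CENPE, the kinetochore kinesin, was low in Lat-M2 2 (43.2 TPM, against 53.0 to 55.2 TPM in the other 3 Lat-M libraries). The gap was 0.834 of the range of the 4 Lat-M libraries, just past Dixon's 95% limit, which chance passes in about 1 in 20 groups, and 69 groups were looked at.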

How the results depend on the processing

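Calls that held with each library left out on both scales are those named above. Counts as deposited were 14 (S phase) and 17 (mitosis) of Lat-M1 against PA, 1 and 5 in Lat-M2 against PA, 9 and 12 between the Lat-M pairs, and 0 and 0 in Lat-M against PA. Against a 1.5-fold change each was 0. For Lat-M2 against PA, S phase gave 0 with no filter and 3 with a minimum mean of 5 TPM. It gave 3 after median ratio scaling and 2 without the structural RNAs. Mitosis gave 1 with no filter and 2 under either rescaling. Of all tested genes, 1532 of 33117 passed with no filter and 2799 of 11444 with a minimum mean of 5 TPM. After median ratio scaling 2649 of 16700 passed, and without the structural RNAs 2414 of 17755. Lat-M against PA as a contrast in the fit of 3 groups gave 11 and 12, where 36.5% of all genes passed.

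Same last numbers did not pair the libraries (correlations of deviations -0.082 to 0.0312). With the last number as a replicate block, Lat-M1 against PA gave 7 mitosis genes, or 10 after scaling. Under the block 5908 of 16724 tested genes passed there, and 6193 of 16700 after scaling. Lat-M2 against PA gave 0 in both lists, as it did after scaling, where 943 of 16724 and 689 of 16700 tested genes passed. Lat-M against PA had 0 calls among all genes under the block, with 2060 genes at an unadjusted p under 0.05.

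With each library left out, S phase counts ranged from 6 to 17 (Lat-M1 against PA), 0 to 10 (Lat-M2 against PA), 4 to 14 (Lat-M2 against Lat-M1) and 0 to 8 (Lat-M against PA), and mitosis counts from 7 to 18, 0 to 16, 8 to 16 and 0 to 8. After scaling as well, these ranges were 9 to 14, 1 to 3, 7 to 14 and 0 to 0 for S phase, and 10 to 15, 0 to 3, 12 to 16 and 0 to 0 for mitosis. Within them, Lat-M1 against PA gave 9 S phase genes without Lat-M1 2, and 10, 11 and 11 mitosis genes without Lat-M1 1, Lat-M1 2 and PA 3. Lat-M2 against PA gave 3 in both lists without PA 1, where 1933 of 16727 tested genes passed. Without PA 2 it gave 2 (S phase) and 3 (mitosis), where 2011 of 16721 tested genes passed. Without PA 3 or either Lat-M1 library it gave 2 and 0. Lat-M2 against Lat-M1 gave 14 S phase genes without PA 1, where 7714 of 16727 tested genes passed. The number of all tested genes that passed also moved with the library left out. These ranges are therefore not read as a result about the members.

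Median S phase differences, 0.314, 0.183, -0.14 and 0.218 in the order above, ranged with a library left out from 0.244 to 0.387, 0.085 to 0.271, -0.293 to -0.012 and 0.196 to 0.285. After median ratio scaling they were 0.138, 0.032 and 0.054 (Lat-M1, Lat-M2 and Lat-M against PA), and without the structural RNAs 0.118, 0.08 and 0.068, and -0.047 for Lat-M2 against Lat-M1. Median mitosis differences, 0.198, 0.132, -0.08 and 0.145, ranged from 0.157 to 0.226, 0.063 to 0.22, -0.162 to -0.01 and 0.123 to 0.181. After scaling they were 0.026, -0.02 and -0.019, and without the structural RNAs 0.006, 0.029 and -0.005, and 0.013 for Lat-M2 against Lat-M1. Mitosis medians that changed sign lay within 0.03 of 0 after the change, and the rescaling itself takes off the shift of all genes.

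Mean log2 levels of S phase became 6.02 (PA) and 6.11 (Lat-M1) after scaling, 5.9 for PA with a pseudocount of 0.1, and 6.45, 6.52 and 6.48 (PA, Lat-M1, Lat-M2) without the structural RNAs. Those of mitosis became 6.65 (PA) and 6.65 (Lat-M1) after scaling, and 7.08, 7.06 and 7.12 without the structural RNAs. In Lat-M1 against PA, 3 single genes changed sign with a call: CDK1 (-0.11 after scaling, -0.13 without the structural RNAs), MCM7 (-0.17 and -0.19) and TPX2 (-0.13 and -0.15). Of 2892 alternative values of single genes, 2470 kept their side of the threshold, 330 lost the call and 86 gained one. A further 6 changed sign with a call in either setting. Changes of sign in genes called in neither setting are counted among the 2470. Depth was unknown and could not be weighed. With 2 libraries in each Lat-M pair, the calls rest on a spread shared by the 3 groups.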

Other observations

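Across the 51 members, 2 went against the order of the Lat-M2 pair as deposited: E2F2 (4.44 TPM in Lat-M2 1 and 4.47 in Lat-M2 2) and CKS2, a CDK-binding subunit (652 and 713 TPM), while the other 49 were higher in Lat-M2 1. In the Lat-M1 pair, replicate 2 was above replicate 1 in 43 of the 51 members as deposited and in 13 after scaling. The ratio of CCND1 to CDKN1A in TPM, chosen after the values were seen, was 1.15, 1.20 and 1.19 in PA, against 1.19 and 1.19 in Lat-M1, and 1.92 and 1.75 in Lat-M2. The ratio of TK1 to RRM2, which lie in the salvage and the de novo supply of deoxynucleotides, was 0.863, 1.09 and 0.935 in PA, against 1.81 and 1.78 in Lat-M1, and 1.23 and 1.21 in Lat-M2.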
